A study of Caenorhabditis elegans with 20 samples.

Results

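The mitochondrial unfolded protein response of *C. elegans* was followed here through 8 genes: the mitochondrial chaperones *hsp-6* and *hsp-60*, the matrix proteases *lonp-1* and *clpp-1*, the peptide exporter *haf-1*, and the regulators *atfs-1*, *dve-1* and *ubl-5*. They were chosen by name for their established place in the pathway, with earlier results of these data known. They are 8 of 46284 genes in the table and 8 of the 15957 genes that were tested. RNA was sequenced from whole day 1 adult worms of 5 strains with 4 replicates each, 20 samples in all. The strains were wild-type, single mutants for *hecd-1(tm2371)*, for *bcat-1(hh58)* or for *ivd-1(tm6784)*, and the double mutant with both *bcat-1* and *ivd-1* alleles, and each mutant is called by its gene below. All strains derive from the N2 strain and fed on OP50 bacteria. *bcat-1* encodes the branched-chain aminotransferase that takes the amino group from leucine, isoleucine and valine, *ivd-1* encodes isovaleryl-CoA dehydrogenase, which acts further down in leucine breakdown inside mitochondria, and *hecd-1* encodes a HECT-type ubiquitin ligase. *tm6784* and *tm2371* are deletion alleles. *hh58* is an engineered premature stop in the first exon of *bcat-1*, carried by a viable strain that develops slowly and has few offspring. For strains with delayed development, the study shifted the synchronization or the collection.

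In worms, disturbed mitochondrial import, translation or respiration activates the transcription factor ATFS-1, which carries both a mitochondrial targeting sequence and a nuclear localization signal. When import falters, ATFS-1 goes to the nucleus and, together with the homeodomain protein DVE-1 and the ubiquitin-like protein UBL-5, raises transcription of chaperone and protease genes. *hsp-6* (mitochondrial Hsp70) and *hsp-60* (mitochondrial chaperonin) are the standard readouts of the response. ATFS-1 is itself regulated at the level of its location, so the abundance of its transcript is not a measure of its activity.

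Positions were looked up by gene identifier in the Ensembl annotation of the WBcel235 build. There, *hsp-6* (WBGene00002010) lies on chromosome V from 4824124 to 4826760 on the minus strand. *hsp-60* (WBGene00002025) lies on chromosome III from 1619742 to 1625803 on the plus strand. *atfs-1* (WBGene00013878) is on chromosome V from 14193663 to 14197700, plus strand, and *dve-1* (WBGene00022861) on chromosome X from 427035 to 433812, minus strand. The proteases *lonp-1* (WBGene00016391, chromosome I, 10676922 to 10682374, minus strand) and *clpp-1* (WBGene00014172, chromosome II, 10300714 to 10302842, minus strand) are not neighbours of any other member. *haf-1* (WBGene00001811) is on chromosome IV from 17376427 to 17379310, plus strand, and *ubl-5* (WBGene00006726) on chromosome I from 5607826 to 5608841, minus strand. All 8 are protein-coding, and values are sums over the whole gene. Exons of *haf-1* share 64 bases with C30H6.9 on the opposite strand. The exons of the other members overlap no exon of another annotated gene.

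The values are FPKM, fragments scaled by transcript length and by the mapped total, so the levels of different genes are given per length. The depth of the libraries is unknown, because the table gives no counts. The summed FPKM of a sample ran from 1004157 to 1136133. *hecd-1* was at 21.5 to 23.3 FPKM in *hecd-1* mutants and at 32.3 to 33.7 FPKM in wild-type, and the other 3 strains were at 32.2 to 34.4 FPKM. *ivd-1* was at 149 to 162 FPKM in *ivd-1* mutants, 59.7 to 65.9 in double mutants and 206 to 230.4 in wild-type, but also at 123 to 127 in *bcat-1* mutants, which do not carry *tm6784*, so a low level does not by itself mark that deletion. *bcat-1* was not lower in *bcat-1* mutants (197 to 218 FPKM) than in wild-type (123 to 145 FPKM), so its own level does not check that label either. The median gene was also higher in the mutants than in wild-type, by 0.11 on the log2 scale in *ivd-1* mutants, 0.17 in *bcat-1* mutants, 0.10 in double mutants and 0.08 in *hecd-1* mutants. With median-of-ratios scaling these medians were 0.02, 0.01, 0.02 and 0.04, so that a member at 0 on the FPKM scale stood below the median gene. In whole worms, fewer cells of a type and less RNA per cell cannot be told apart.

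In wild-type worms the readouts were the most abundant members. *hsp-60* averaged 363 FPKM ± 16.9 (SD, n = 4) and ranked 400 of 15957 tested genes, and *hsp-6* averaged 311 FPKM ± 2.14 and ranked 473. *ubl-5* (90.7 FPKM), *clpp-1* (62.0 FPKM), *atfs-1* (54.5 FPKM) and *lonp-1* (48.4 FPKM) formed a middle group. *dve-1* at 6.43 FPKM and *haf-1* at 3.25 FPKM were the least abundant.

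**Figure D1:**
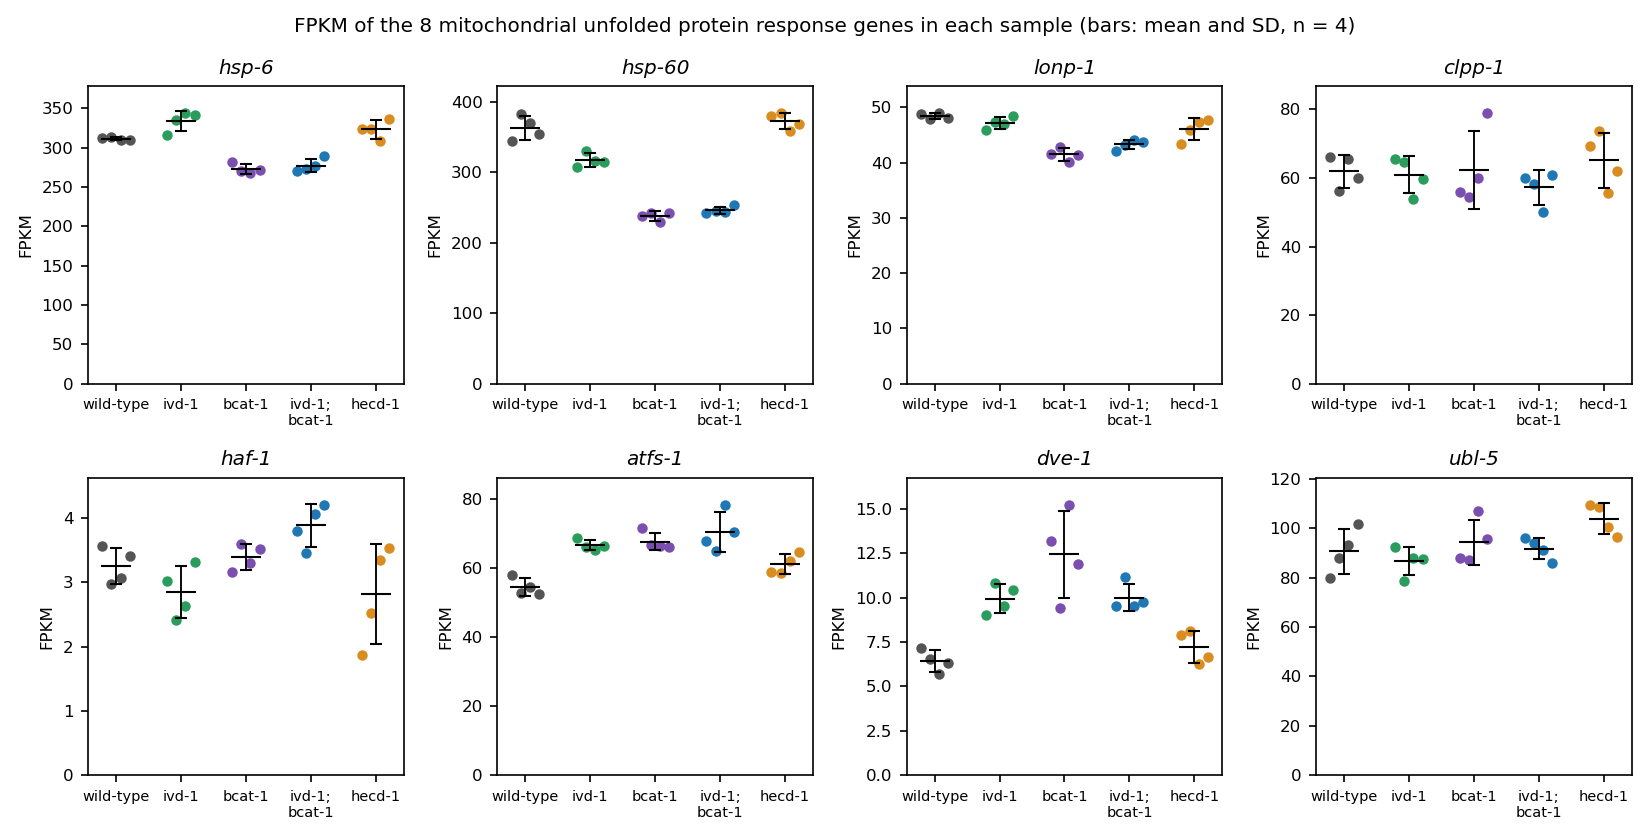
FPKM of the 8 members in each of the 20 samples, 1 panel a gene, with the strain on the x axis, replicates 1 to 4 from left to right within a strain, and black bars for the mean and SD (n = 4). *hsp-60* stood at 229 to 254 FPKM in the 8 samples that carry *bcat-1(hh58)* and at 308 to 384 FPKM in the other 12, while *dve-1* stood at 9.05 to 15.2 FPKM in the 12 samples of *ivd-1* mutants, *bcat-1* mutants and double mutants and at 5.69 to 8.09 FPKM in the other 8.

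The first question was how each mutant differed from wild-type. In *bcat-1* mutants and in double mutants *hsp-60*, *hsp-6* and *lonp-1* were lower, whereas *atfs-1* and *dve-1* were higher. In *ivd-1* mutants *hsp-60* was lower, *atfs-1* and *dve-1* were higher, and *hsp-6* was marginally higher. In *hecd-1* mutants only *atfs-1* passed the test, at an adjusted p close to the threshold.

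As counts, 4 of 8 members passed in *ivd-1* mutants (3 higher, 1 lower), where 22.8% of all tested genes passed. In *bcat-1* mutants 5 of 8 passed (2 higher, 3 lower) against 44.2% of all genes, and the genes that passed by being lower were 10.3% of all. In double mutants 5 of 8 passed (2 higher, 3 lower) against 38.3% of all genes, with 11.9% of all passing as lower. In *hecd-1* mutants 1 of 8 passed against 21.1% of all genes. Genes that passed by being higher were 19.9%, 33.9%, 26.4% and 14.0% of all in the same order, and those lower 2.88% in *ivd-1* mutants and 7.15% in *hecd-1* mutants. The median log2 fold change of the 8 members was -0.03, 0.03, -0.05 and 0.06 in the order given, near 0 in each strain because members moved in both directions. All 4 comparisons use the same wild-type samples, so they are not independent of each other. Throughout, the test is limma on log2(FPKM + 0.5) over all 20 samples, two-sided, with p-values adjusted by Benjamini-Hochberg over the 15957 genes and a threshold of 0.05. The labels give replicate numbers only, and the methods of the study state that the 4 replicates of a strain were collected in separate experiments.

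*hsp-60* encodes the mitochondrial chaperonin, a folding chamber for newly imported proteins. Its FPKM in wild-type replicates 1 to 4 was 344, 383, 370.1 and 354. In *bcat-1* mutants it was 238, 243, 229 and 243, and in double mutants 243, 245, 244 and 254. Every sample of both strains lay below the lowest wild-type sample. *ivd-1* mutants stood between, with 308, 331, 317 and 315 FPKM, and their highest sample was still below the lowest of wild-type. *hecd-1* mutants, with 380.5, 384, 359 and 369 FPKM, overlapped wild-type.

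The mean of *hsp-60* was 34.3% below wild-type in *bcat-1* mutants, with a log2 fold change of -0.60 (SE 0.036, limma adjusted p = 2.86e-09). This change was at percentile 1.97 of all tested genes, counted from the most lowered. In double mutants it was 32.1% below, with a log2 fold change of -0.56 (SE 0.036, limma adjusted p = 7.88e-09). In *ivd-1* mutants the decrease was smaller, 12.5% (log2 fold change -0.19, SE 0.036, limma adjusted p = 0.00104). Median-of-ratios scaling moved these values down, to -0.79, -0.65 and -0.30, and quantile normalization gave -0.60, -0.49 and -0.22. All 3 decreases passed under each of the alternatives tried. With a germline score as a covariate, the mean level of listed germline genes, they were -0.61, -0.56 and -0.19. In *hecd-1* mutants the log2 fold change was 0.04, with a 95% interval from -0.03 to 0.12 (limma adjusted p = 0.453).

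*hsp-6* encodes the mitochondrial Hsp70, which pulls precursors into the matrix and helps them fold. Wild-type replicates gave 313, 314, 309.8 and 309 FPKM, the tightest group of any member in any strain (CV 0.687%). In *bcat-1* mutants the values were 281, 269.9, 267 and 271 FPKM, and in double mutants 270.2, 272, 276 and 289 FPKM. Neither strain overlapped wild-type. The decrease was 12.5% in *bcat-1* mutants (log2 fold change -0.19, SE 0.034, limma adjusted p = 0.00015) and 11.1% in double mutants (-0.17, limma adjusted p = 0.000842), in both strains a smaller change on the log2 scale than that of *hsp-60*. In double mutants the call was lost with quantile normalization (-0.08, limma adjusted p = 0.116).

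In *ivd-1* mutants *hsp-6* was at 316, 335, 344 and 341 FPKM, above every wild-type sample. The log2 fold change was 0.10 (SE 0.034, limma adjusted p = 0.0402), the same size as the shift of the median gene. It was -0.0077 with median-of-ratios scaling (limma adjusted p = 0.899) and 0.07 with quantile normalization (limma adjusted p = 0.144). The call was also lost without any 1 of the 4 wild-type samples, without *ivd-1* mutant replicate 2, 3 or 4 and without *hecd-1* mutant replicate 2, with adjusted p from 0.0501 to 0.107. A higher *hsp-6* in *ivd-1* mutants therefore rests on the FPKM scaling. In *hecd-1* mutants, at 324, 324, 308 and 337 FPKM, the gene overlapped wild-type and the log2 fold change was 0.05 (95% interval -0.02 to 0.12, limma adjusted p = 0.282).

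*lonp-1* encodes the Lon protease of the matrix, which removes oxidized and misfolded proteins and is known to degrade ATFS-1 inside healthy mitochondria. Wild-type samples read 48.8, 47.9, 49.0 and 48.0 FPKM. *bcat-1* mutant samples read 41.5, 42.9, 40.2 and 41.3 FPKM, and those of double mutants 42.2, 43.1, 44.1 and 43.6 FPKM. Both groups lay wholly below wild-type. The log2 fold change was -0.22 (SE 0.034, limma adjusted p = 4.72e-05) in *bcat-1* mutants and -0.16 (limma adjusted p = 0.00157) in double mutants. In *ivd-1* mutants, at 45.8 to 48.4 FPKM, it was -0.04 (95% interval -0.11 to 0.03, limma adjusted p = 0.428). In *hecd-1* mutants, at 43.4 to 47.7 FPKM and so also wholly below wild-type, it was -0.07 (95% interval -0.14 to 0.00053, limma adjusted p = 0.147). The last 2 values passed under other processing: median-of-ratios scaling gave -0.15 for *ivd-1* mutants (limma adjusted p = 0.0472), and quantile normalization gave -0.17 for *hecd-1* mutants (limma adjusted p = 0.00122).

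*clpp-1* encodes the proteolytic subunit of the ClpP protease, which cuts damaged matrix proteins to peptides. It ran from 49.9 to 79.0 FPKM over the 20 samples, and no strain passed against wild-type, with log2 fold changes from -0.11 to 0.07. Its samples spread widely: the CV was 18.1% in *bcat-1* mutants, where 3 samples were at 54.5 to 60.1 FPKM and replicate 4 was at 79.0 FPKM. The 95% interval of the log2 fold change in *bcat-1* mutants ran from -0.24 to 0.23, wide enough to hold a decrease like that of *hsp-6* or *lonp-1*.

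HAF-1 is an ABC transporter of the inner membrane that exports peptides made by ClpP. *haf-1* read 2.97 to 3.56 FPKM in wild-type, 2.41 to 3.31 in *ivd-1* mutants, 3.16 to 3.60 in *bcat-1* mutants, 3.46 to 4.21 in double mutants and 1.87 to 3.53 in *hecd-1* mutants. No strain passed against wild-type, with log2 fold changes from -0.21 to 0.23 and standard errors of 0.14. The low and uneven values in *hecd-1* mutants (replicates 1 and 2 at 1.87 and 2.52 FPKM, 3 and 4 at 3.35 and 3.53 FPKM) gave a CV of 27.4%. With quantile normalization *haf-1* passed as lower in *bcat-1* mutants (-0.54, limma adjusted p = 0.0415), a direction opposite to that on the FPKM scale (0.06, limma adjusted p = 0.777).

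*atfs-1* encodes the bZIP factor at the head of the response. Wild-type samples read 58.0, 52.8, 54.6 and 52.5 FPKM. All 12 samples of *ivd-1* mutants (68.7, 66.2, 65.3, 66.3), *bcat-1* mutants (71.5, 66.7, 66.5, 66.3) and double mutants (67.8, 64.9, 78.5, 70.5) were above the highest wild-type sample. The means were 22.3%, 24.3% and 29.3% above wild-type. On the log2 scale the gene rose by 0.29 in *ivd-1* mutants (SE 0.052, limma adjusted p = 0.000742), by 0.31 in *bcat-1* mutants (limma adjusted p = 0.000103) and by 0.36 in double mutants (limma adjusted p = 4.67e-05).

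Part of this rise was shared with the median gene. With median-of-ratios scaling the 3 values were 0.18 (limma adjusted p = 0.0353), 0.12 (limma adjusted p = 0.0989) and 0.27 (limma adjusted p = 0.00189), so the call in *bcat-1* mutants was lost. In *hecd-1* mutants *atfs-1* was at 59.0, 58.7, 62.0 and 64.8 FPKM, also above every wild-type sample. Its log2 fold change was 0.17 (SE 0.052, limma adjusted p = 0.0333). That call did not hold with median-of-ratios scaling (0.12, limma adjusted p = 0.201), with quantile normalization (0.07, limma adjusted p = 0.373), or without wild-type replicate 2, 3 or 4 or *hecd-1* mutant replicate 3 or 4 (adjusted p from 0.0662 to 0.113).

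*dve-1* encodes a homeodomain protein that gathers at chromatin of target genes when the response is on. In wild-type it read 7.16, 6.52, 5.69 and 6.34 FPKM. *ivd-1* mutant samples read 9.05, 10.8, 9.51 and 10.4 FPKM, *bcat-1* mutant samples 13.2, 9.41, 15.2 and 11.9 FPKM, and those of double mutants 9.55, 11.2, 9.53 and 9.77 FPKM. No sample of these 3 strains fell within the wild-type range, and *bcat-1* mutants had both the highest values and the widest spread (CV 19.7%). The mean was 1.55 times wild-type in *ivd-1* mutants, 1.93 times in *bcat-1* mutants and 1.56 times in double mutants. On the log2 scale the increases were 0.59 (SE 0.12, limma adjusted p = 0.00188), 0.89 (limma adjusted p = 1.24e-05) and 0.60 (limma adjusted p = 0.000931). All passed in every alternative tried, but quantile normalization reduced them to 0.27, 0.45 and 0.37, and the germline score as a covariate reduced the rise in *ivd-1* mutants to 0.35. *hecd-1* mutants, at 6.26 to 8.09 FPKM, did not pass against wild-type (log2 fold change 0.15, 95% interval -0.10 to 0.41, limma adjusted p = 0.404), except with the germline score as a covariate (0.48, limma adjusted p = 0.00146).

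Some markers of other tissues were also higher in the strains in which *dve-1* was higher. In the list of 9 hypodermal and molting genes, 8 passed as higher in each of *ivd-1* mutants, *bcat-1* mutants and double mutants and 1 in *hecd-1* mutants, where 19.9%, 33.9%, 26.4% and 14.0% of all genes did, and 1 passed as lower in *bcat-1* mutants. The summed FPKM of these 9 genes was 35.0 to 48.3 in wild-type, 97.3 to 243 in *ivd-1* mutants, 150 to 509 in *bcat-1* mutants, 77.6 to 119 in double mutants and 43.4 to 80.4 in *hecd-1* mutants. Of 8 neuronal genes, 7 passed as higher in *ivd-1* mutants, 8 in *bcat-1* mutants, 3 in double mutants and 1 in *hecd-1* mutants. Their summed FPKM was 201 to 221 in wild-type, 229 to 234 in *ivd-1* mutants, 255 to 276 in *bcat-1* mutants, 241 to 249.8 in double mutants and 229.9 to 243 in *hecd-1* mutants. The neuronal sum was thus above wild-type in *hecd-1* mutants too, where *dve-1* did not pass. No marker of either list was at 0 in a whole strain. Other lists are given for *ivd-1* mutants, *bcat-1* mutants and double mutants, in that order. Of all genes, 2.88%, 10.3% and 11.9% passed as lower in these strains. Of 6 early embryo genes, 1, 3 and 5 passed as higher, and 0 passed as lower in each strain. Of 6 body wall muscle genes, 0, 1 and 0 passed as higher and 0, 0 and 1 as lower. Sperm genes, 8 in all, had 0, 0 and 4 lower calls. Intestinal genes, 9 in all, had 1, 3 and 4 higher and 5, 1 and 1 lower calls. Germline and oocyte genes, 23 in all, had 0, 0 and 1 higher and 5, 6 and 5 lower calls. Of these lists, only the germline genes were entered in the fit, as the germline score covariate. The part of the other tissue markers in the changes of *dve-1* and *atfs-1* was not tested.

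*ubl-5*, the ubiquitin-like partner of DVE-1, was at 79.7 to 102 FPKM in wild-type, 78.7 to 92.3 in *ivd-1* mutants, 87.1 to 107 in *bcat-1* mutants, 86.1 to 95.9 in double mutants and 96.7 to 110 in *hecd-1* mutants. It passed in no comparison with wild-type. The nearest was *hecd-1* mutants, with a log2 fold change of 0.20 (95% interval 0.04 to 0.36, limma adjusted p = 0.072). In *ivd-1* mutants, *bcat-1* mutants and double mutants, where *dve-1* and *atfs-1* passed, *ubl-5* had log2 fold changes of -0.06, 0.06 and 0.02.

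**Figure D2:**
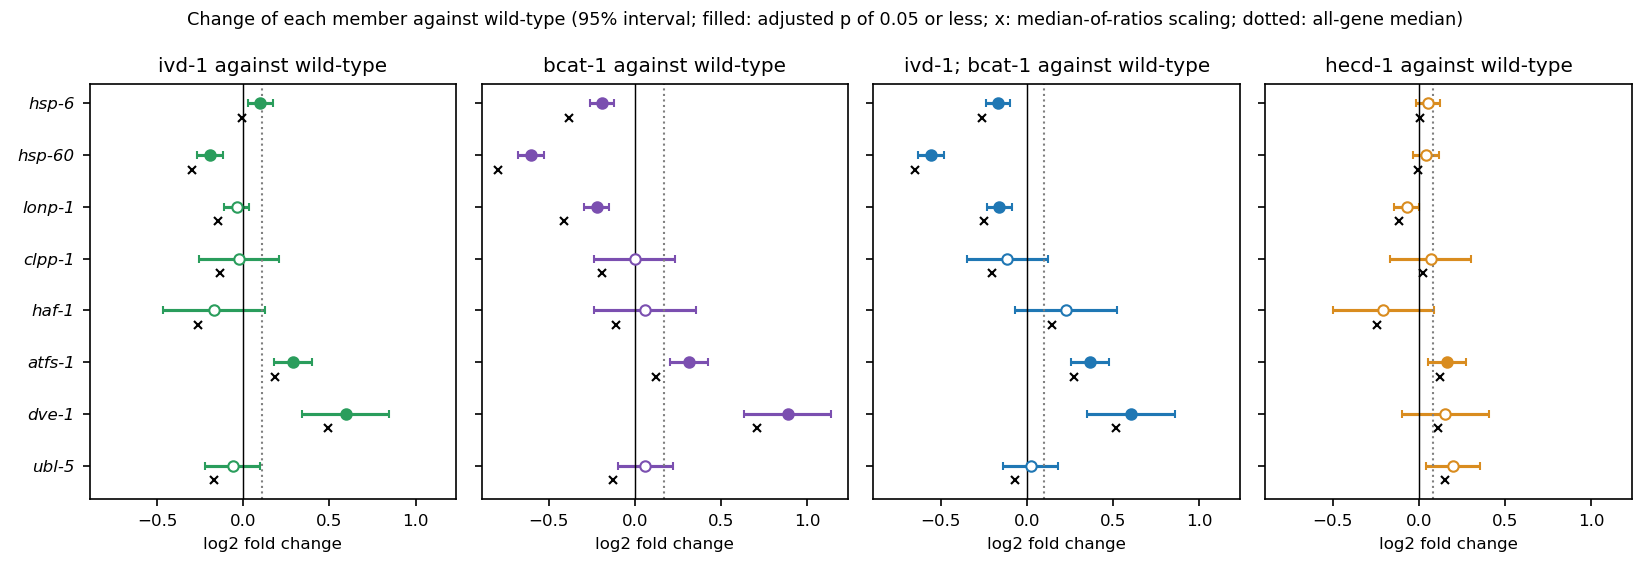
Log2 fold change of each member against wild-type in the 4 mutant strains, 1 panel a strain; circles with bars give the value and 95% interval (filled where the adjusted p is 0.05 or less), crosses the value with median-of-ratios scaling, and the dotted line the median over all tested genes. *hsp-60* lies left of 0 in *ivd-1* mutants (-0.19), *bcat-1* mutants (-0.60) and double mutants (-0.56) with both scalings, whereas *hsp-6* in *ivd-1* mutants moves from 0.10 to -0.0077.

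The second question was what *bcat-1(hh58)* adds to a worm that already lacks *ivd-1*, and whether it does there what it does in wild-type. Against *ivd-1* mutants, double mutants had lower *hsp-60*, *hsp-6* and *lonp-1* and higher *haf-1*, so 4 of 8 members passed where 44.6% of all genes did. *hsp-60* fell by 0.37 on the log2 scale (limma adjusted p = 1.89e-06) and *hsp-6* fell by 0.27 (limma adjusted p = 2.52e-05). *hsp-6* stood highest in *ivd-1* mutants and near its lowest in double mutants. *lonp-1* fell by 0.12 (limma adjusted p = 0.00938), a call lost with median-of-ratios scaling (-0.10, limma adjusted p = 0.109). *haf-1* rose by 0.40 (SE 0.14, limma adjusted p = 0.03), and that call was lost without *ivd-1* mutant replicate 2 or 3, without double mutant replicate 3 or 4 (adjusted p from 0.0665 to 0.0992), and with the germline score as a covariate (0.15, limma adjusted p = 0.545). *dve-1* did not pass (log2 fold change 0.0078, 95% interval -0.25 to 0.26, limma adjusted p = 0.966) except with the germline score as a covariate (0.33, limma adjusted p = 0.0274), nor did *atfs-1* pass (0.08, 95% interval -0.03 to 0.19, limma adjusted p = 0.246).

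Between *bcat-1* mutants and *ivd-1* mutants directly, the same 3 genes of protein folding and clearance passed, all lower in *bcat-1* mutants, where 19.5% of all genes passed in either direction and 6.29% as lower. The log2 fold change was -0.41 for *hsp-60* (limma adjusted p = 3.8e-07), -0.29 for *hsp-6* (limma adjusted p = 9.49e-06) and -0.18 for *lonp-1* (limma adjusted p = 0.0011). Each kept its call in every alternative tried. *atfs-1*, at 0.02 (95% interval -0.09 to 0.13, limma adjusted p = 0.802), and *dve-1*, at 0.29 (95% interval 0.04 to 0.55, limma adjusted p = 0.10), did not pass. With the germline score as a covariate *dve-1* passed here (0.31, limma adjusted p = 0.00374).

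Between double mutants and *bcat-1* mutants 0 of 8 members passed by limma, where 23.4% of all genes did, and 1 had an unadjusted p under 0.05. This was *dve-1*, lower in double mutants (log2 fold change -0.28, 95% interval -0.54 to -0.03, limma adjusted p = 0.086). The intervals of the others were -0.05 to 0.09 for *hsp-6*, -0.03 to 0.12 for *hsp-60* and -0.01 to 0.13 for *lonp-1*. This comparison depended on the scaling, with 3 members passing under median-of-ratios scaling and 1 under quantile normalization, and 1 passed without *bcat-1* mutant replicate 2.

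The interaction term asks whether the effect of *bcat-1(hh58)* differs between the *ivd-1* mutant and the wild-type background. It passed for 3 of 8 members, where 47.4% of all genes passed. For *hsp-60* it was 0.24 (SE 0.051, limma adjusted p = 0.00173): *bcat-1(hh58)* lowered the gene by 0.60 in wild-type and by 0.37 in *ivd-1* mutants. For *dve-1* it was -0.88 (SE 0.17, limma adjusted p = 0.000872), with a rise of 0.89 in wild-type and 0.0078 in *ivd-1* mutants. For *atfs-1* it was -0.24 (SE 0.074, limma adjusted p = 0.0162), with 0.31 in wild-type and 0.08 in *ivd-1* mutants. In these 3 genes the 2 single mutants had each moved from wild-type in the direction of the double mutants, and the double mutants were nearer to wild-type than the sum of both changes. *hsp-6* (-0.08, limma adjusted p = 0.186) and *lonp-1* (0.10, limma adjusted p = 0.0983) did not pass.

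The median gene had an interaction of -0.19 on the FPKM scale and -0.01 with median-of-ratios scaling. The interaction of *hsp-60* ran against that median and was larger with median-of-ratios scaling (0.45, limma adjusted p = 5.68e-05). That of *dve-1* was -0.68 (limma adjusted p = 0.00199) and still passed. That of *atfs-1* was -0.03 (limma adjusted p = 0.775) and did not. Germline and oocyte markers had an interaction too, with 21 of 23 passing, all positive, where 12.2% of all genes passed as positive. The median germline score was 8.15 in wild-type, 7.98 in *ivd-1* mutants, 7.96 in *bcat-1* mutants, 8.20 in double mutants and 8.43 in *hecd-1* mutants. This score is the mean log2(FPKM + 0.5) of the 21 listed germline genes above 0 in every sample. With it as a covariate the interaction was 0.25 for *hsp-60* (limma adjusted p = 0.0413), -0.34 for *atfs-1* (limma adjusted p = 0.0447) and -0.33 for *dve-1* (limma adjusted p = 0.204).

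**Figure D3:**
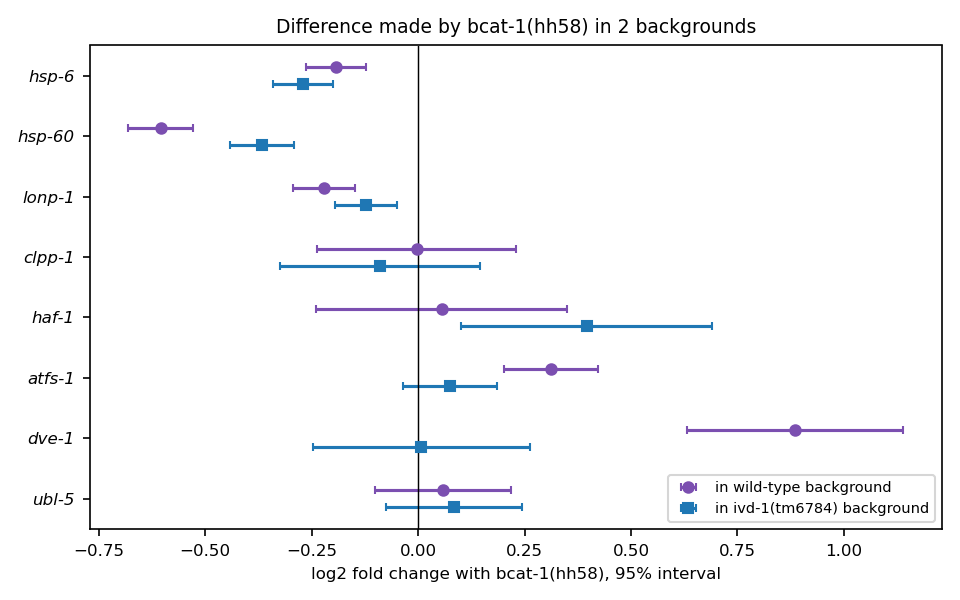
Log2 fold change made by *bcat-1(hh58)* in the wild-type background (circles) and in the *ivd-1* mutant background (squares), with 95% intervals, for the 8 members. The intervals lie apart for *hsp-60* (-0.60 and -0.37), *atfs-1* (0.31 and 0.08) and *dve-1* (0.89 and 0.0078), the 3 members whose interaction passed.

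*hecd-1* mutants have a lesion in protein ubiquitylation and not in branched-chain amino acid breakdown. Between *ivd-1* mutants and *hecd-1* mutants 3 of 8 members passed, where 49.9% of all genes did. *hsp-60* was lower in *ivd-1* mutants (log2 fold change -0.23, limma adjusted p = 0.00011), as was *ubl-5* (-0.26, limma adjusted p = 0.00922), whose call was lost with the germline score as a covariate (-0.39, limma adjusted p = 0.0518). *dve-1* was higher (0.44, limma adjusted p = 0.00628), but with the germline score as a covariate it was lower and did not pass (-0.13, limma adjusted p = 0.544). *atfs-1*, which had passed against wild-type in both strains, did not pass between them (0.12, limma adjusted p = 0.0576).

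Ordered by mean level, *hsp-60* ran *hecd-1* mutants, wild-type, *ivd-1* mutants, double mutants, *bcat-1* mutants. The first 2 did not pass against each other, nor did the last 2 (limma adjusted p = 0.311), while each step between passed. For *hsp-6* the order was *ivd-1* mutants, *hecd-1* mutants, wild-type, double mutants, *bcat-1* mutants, and among neighbours only wild-type and double mutants differed. For *dve-1* the order was *bcat-1* mutants, double mutants, *ivd-1* mutants, *hecd-1* mutants, wild-type, with 1 step that passed, between *ivd-1* mutants and *hecd-1* mutants. *atfs-1* ran from double mutants through *bcat-1* mutants, *ivd-1* mutants and *hecd-1* mutants to wild-type, and among neighbours the last step alone passed (limma adjusted p = 0.0333).

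Ratios within a sample do not depend on a scaling that multiplies the whole sample by a single factor, which leaves out quantile normalization. *hsp-60* over *atfs-1*, the chaperone readout over its regulator, was 6.68 ± 0.547 (SD, n = 4) in wild-type, 6.12 ± 0.440 in *hecd-1* mutants, 4.77 ± 0.219 in *ivd-1* mutants, 3.52 ± 0.163 in *bcat-1* mutants and 3.51 ± 0.287 in double mutants. Its 3 lower strains did not overlap wild-type (5.93 to 7.25): the highest of *ivd-1* mutants was 4.99, and the highest of the strains with *bcat-1(hh58)* was 3.77. Wild-type samples had a ratio of *hsp-60* over *hsp-6*, the chaperonin over the Hsp70, of 1.10 to 1.22, and *hecd-1* mutant samples had 1.10 to 1.19. The ratio was 0.921 to 0.987 in *ivd-1* mutants, 0.847 to 0.901 in *bcat-1* mutants and 0.878 to 0.899 in double mutants, so *hsp-60* exceeded *hsp-6* in all 8 samples of the first pair of strains and in none of the other 12. *hsp-60* over *lonp-1* was 7.05 to 7.99 in wild-type and 5.52 to 5.89 in the 8 samples with *bcat-1(hh58)*. Such ratios show unequal change of a pair of transcripts and do not say which of them moved.

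Over the 20 samples the 3 genes *hsp-6*, *hsp-60* and *lonp-1* went together, with Pearson's r of log2(FPKM + 0.5) of 0.83 for *hsp-6* and *hsp-60*, 0.82 for *hsp-60* and *lonp-1* and 0.80 for *hsp-6* and *lonp-1*. *hsp-60* ran opposite to *dve-1* (r = -0.80) and *atfs-1* (r = -0.74). These describe strain differences: within strains, after each strain's mean was removed, *hsp-6* and *hsp-60* had r = 0.39, *hsp-60* and *lonp-1* -0.02, and *hsp-60* and *dve-1* -0.07. The samples share strains and scaling. Among the 13608 genes with a mean of at least 1 FPKM and the 20 samples compared, those most like *hsp-60* were *cri-3* (r = 0.98), *dao-5*, *snu-13*, *ddx-19* and *mrps-22* (the last r = 0.97). Most like *hsp-6* were C32E8.9 (r = 0.93), *kars-1*, *acdh-2*, T22D1.3 and F55B11.2 (r = 0.91). Most like *atfs-1* were *efhd-1* (r = 0.92), *paqr-1*, *ubc-8*, *frm-10* and *nlp-28* (r = 0.90).

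Other genes of mitochondrial protein upkeep were taken from lists grouped by function. Lists and members were chosen with earlier results of these data known, so a direction shared by both is not independent evidence. Of all tested genes, 2.88% passed as lower in *ivd-1* mutants, 10.3% in *bcat-1* mutants, 11.9% in double mutants and 7.15% in *hecd-1* mutants. As higher, 19.9%, 33.9%, 26.4% and 14.0% passed in the same order. These shares are on the FPKM scale. With median-of-ratios scaling, 4051 of 15914 genes passed in either direction in *ivd-1* mutants and 7879 in *bcat-1* mutants. The share of all genes passing as lower under that scaling is not given here. List counts under it therefore show dependence on scaling and cannot be read as an excess. Of 5 further mitochondrial chaperones and co-chaperones, 4 passed as lower in *bcat-1* mutants, 4 in double mutants and 1 in *hecd-1* mutants (3 with quantile normalization). In *ivd-1* mutants 0 passed by limma, and 0 had an unadjusted p under 0.05. *Y22D7AL.10*, a mitochondrial Hsp10, the lid of the chaperonin, went from 456 FPKM in wild-type to 362 in *bcat-1* mutants (log2 fold change -0.33, limma adjusted p = 3.66e-07) and 356 in double mutants (-0.36, limma adjusted p = 2.68e-07). *trap-1*, the mitochondrial Hsp90, went from 742 FPKM to 594 (-0.32, limma adjusted p = 0.00174) and 564 (-0.40, limma adjusted p = 0.000433). *trap-1* was also the gene of the list that passed in *hecd-1* mutants, at 577 FPKM (-0.36, limma adjusted p = 0.00251). The chaperonin and its lid were thus both lower in the strains with *bcat-1(hh58)*, and with median-of-ratios scaling or quantile normalization all 5 genes of the list passed as lower there.

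Of 9 other mitochondrial proteases and prohibitins, 6 passed as lower and 1 as higher in *bcat-1* mutants, and likewise 6 and 1 in double mutants, while in *ivd-1* mutants 0 passed by limma and 2 had an unadjusted p under 0.05. Of all genes, 10.3% passed as lower in *bcat-1* mutants and 11.9% in double mutants. With median-of-ratios scaling 3 passed as lower in *ivd-1* mutants, and in *bcat-1* mutants 8 passed as lower and 0 as higher. *mppa-1*, a subunit of the peptidase that removes targeting sequences, had the largest decrease of the list, from 44.6 FPKM in wild-type to 30.5 in *bcat-1* mutants (log2 fold change -0.54, limma adjusted p = 1.06e-07) and 28.1 in double mutants (-0.65, limma adjusted p = 1.89e-08). *spg-7*, an inner-membrane AAA protease whose loss is a common way to switch on the response, was also lower in *bcat-1* mutants (log2 fold change -0.34, limma adjusted p = 1.28e-06). *phb-1*, a prohibitin of the inner membrane, had -0.33 (limma adjusted p = 7.13e-07). D2030.2 was the gene that passed as higher in both strains on the FPKM scale.

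Of 14 genes of mitochondrial protein import, 10 passed as lower in *bcat-1* mutants and 12 in double mutants, and 0 by limma in *ivd-1* mutants and in *hecd-1* mutants, where 0 and 1 had an unadjusted p under 0.05. The shares of all genes that passed as lower were 10.3% in *bcat-1* mutants and 11.9% in double mutants. *ddp-1*, a small Tim chaperone of the intermembrane space, went from 264 FPKM to 208 in *bcat-1* mutants (log2 fold change -0.35, limma adjusted p = 0.000985) and 192 in double mutants (-0.46, limma adjusted p = 0.000154). *tomm-22*, a receptor of the outer membrane, went from 165 FPKM to 136 (-0.28, limma adjusted p = 0.00763) and 125 (-0.40, limma adjusted p = 0.000867). The list medians were -0.24 and -0.23, where the medians over all genes were 0.17 and 0.10. In *ivd-1* mutants the list was not stable to scaling, with 5 of 14 passing as lower under median-of-ratios scaling and 2 under quantile normalization.

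The respiratory chain depends on imported and folded subunits. Of 24 nuclear-encoded subunits, 22 passed as lower in *bcat-1* mutants, 23 in double mutants and 21 in *hecd-1* mutants, the strain in which no chaperone or protease among the members passed. The shares of all genes that passed as lower in these strains were 10.3%, 11.9% and 7.15%. In *ivd-1* mutants 1 passed as higher and 1 as lower on the FPKM scale, but 16 passed as lower with median-of-ratios scaling and 1 with quantile normalization. Median log2 fold changes were -0.01, -0.20, -0.28 and -0.21 in *ivd-1* mutants, *bcat-1* mutants, double mutants and *hecd-1* mutants.

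Chaperones of the Hsp70 and Hsp60 types outside mitochondria served as a contrast. Of 12 tested, 8 passed as lower and 1 as higher in *bcat-1* mutants, 3 as lower in double mutants, and 6 as higher and 1 as lower in *hecd-1* mutants. Of all genes, 10.3%, 11.9% and 7.15% passed as lower in these strains, and 14.0% as higher in *hecd-1* mutants. In *ivd-1* mutants 1 passed as higher and none as lower on the FPKM scale, whereas 8 passed as lower with median-of-ratios scaling and 2 with quantile normalization. In *hecd-1* mutants the 6 higher calls became 1 with median-of-ratios scaling. Their median log2 fold change in *bcat-1* mutants was -0.15, between the median over all genes (0.17) and the value of *hsp-60*. Lower chaperone transcripts in *bcat-1* mutants were therefore not confined to mitochondrial ones.

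**Figure D4:**
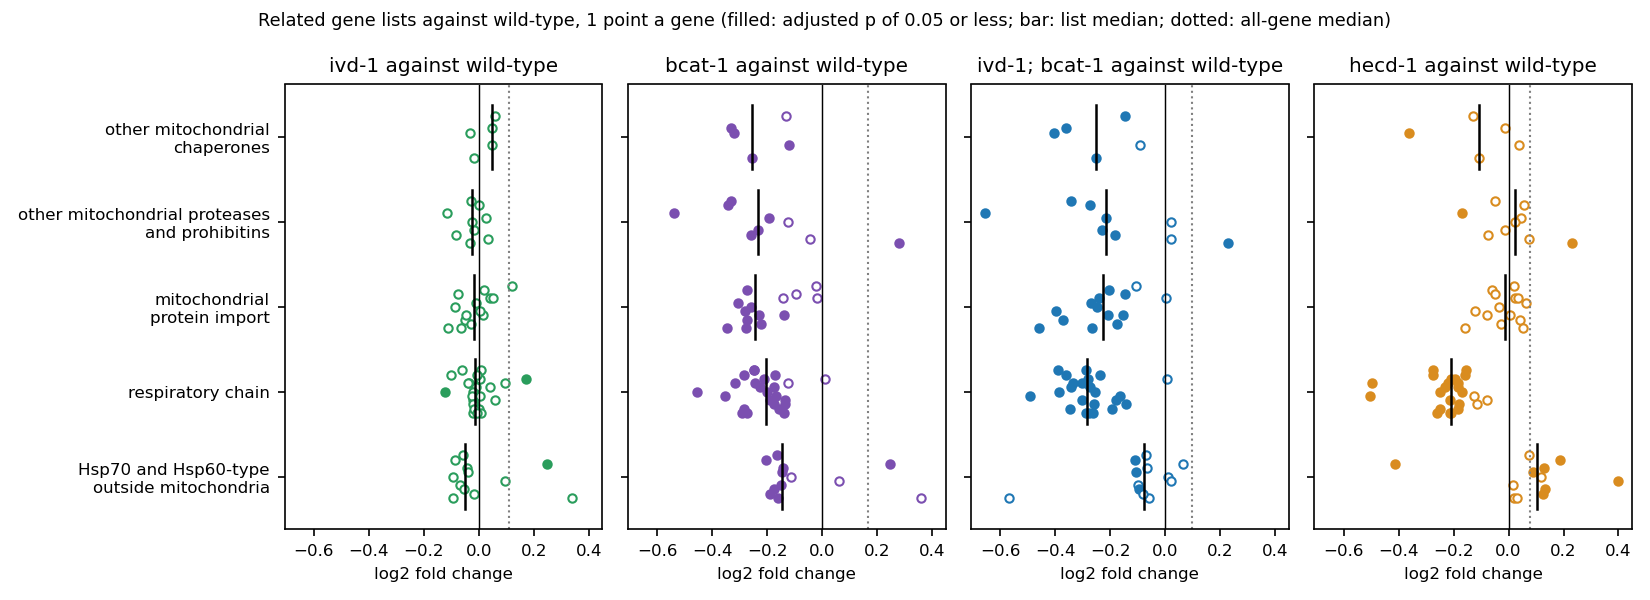
Log2 fold change against wild-type of each gene in 5 lists, 1 panel a strain; points are genes (filled where the adjusted p is 0.05 or less), black bars list medians and the dotted line the median over all tested genes. In *bcat-1* mutants and double mutants most genes of the 4 mitochondrial lists lie left of 0 (respiratory chain medians -0.20 and -0.28), in *hecd-1* mutants the respiratory chain does (-0.21), and in *ivd-1* mutants the lists lie around 0, which holds for FPKM but not for median-of-ratios scaling.

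Of 11 chromatin and signalling factors of the response, 1 passed as higher in *ivd-1* mutants, 1 as higher and 2 as lower in *bcat-1* mutants and 2 as higher in double mutants. Of all genes, 19.9%, 33.9% and 26.4% passed as higher in these strains, and 2.88%, 10.3% and 11.9% as lower. The list as a whole thus had no excess of higher calls. With median-of-ratios scaling 2 passed as lower in *ivd-1* mutants and 6 in *bcat-1* mutants. *jmjd-3.1*, a histone H3 lysine demethylase known to promote the response, passed as higher in all 3: it averaged 1.86 FPKM in wild-type, 2.73 in *ivd-1* mutants (log2 fold change 0.45, limma adjusted p = 0.00884), 3.85 in *bcat-1* mutants (0.87, limma adjusted p = 8.63e-06) and 3.13 in double mutants (0.62, limma adjusted p = 0.000489). Its interaction was -0.70 (limma adjusted p = 0.00293), negative like that of *dve-1*. In *hecd-1* mutants *jmjd-3.1* was at 1.82 FPKM and other factors passed, 6 higher and 1 lower, where 14.0% and 7.15% of all genes did. Among them were *ulp-4*, a SUMO protease that acts on ATFS-1 and DVE-1 (0.29, limma adjusted p = 0.00307), and *zip-3*, a repressor of ATFS-1 (-0.34, limma adjusted p = 0.0405). With median-of-ratios scaling the counts in *hecd-1* mutants were 1 higher and 1 lower.

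Of 5 metabolic and immune genes linked to ATFS-1, 2 passed as higher in *ivd-1* mutants, 3 in *bcat-1* mutants and 4 in double mutants, and 1 passed as lower in each of the last 2 strains. The shares of all genes that passed as higher were 19.9%, 33.9% and 26.4%. *lys-2*, a lysozyme, averaged 64.5 FPKM in wild-type, 136 in *ivd-1* mutants (log2 fold change 1.11, limma adjusted p = 0.00095), 338 in *bcat-1* mutants (2.42, limma adjusted p = 1.29e-07) and 259 in double mutants (2.07, limma adjusted p = 1.21e-06). *clec-4*, a C-type lectin, averaged 2.58, 7.71, 14.3 and 7.99 FPKM in the same order, and passed in the 3 mutants. *abf-2*, an antimicrobial peptide, averaged 1.12 FPKM in wild-type and 4.98 in *bcat-1* mutants (1.83, limma adjusted p = 0.000123). *gpd-2*, a glycolytic enzyme, was lower in double mutants than in *ivd-1* mutants, at 272 and 422 FPKM (-0.63, limma adjusted p = 3.22e-05). Against wild-type, *gpd-2* was the gene that passed as lower, from 373 FPKM to 274 in *bcat-1* mutants and 272 in double mutants. *abf-2* did not pass against wild-type in *ivd-1* mutants. In double mutants *abf-2* passed as higher (1.82, limma adjusted p = 0.000252). *lys-2* and *clec-4* were thus higher in the 3 strains in which *hsp-60* was lower. The list median was 0.44 in *ivd-1* mutants, 1.83 in *bcat-1* mutants and 1.45 in double mutants. Over all genes the median was 0.11, 0.17 and 0.10. *gpd-2* went the other way in *bcat-1* mutants and double mutants.

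Of 6 genes of mitochondrial dynamics and mitophagy, *dct-1*, the worm BNIP3-type mitophagy receptor, passed as higher in *bcat-1* mutants (14.4 FPKM in wild-type and 21.6 in the mutant, log2 fold change 0.58, limma adjusted p = 0.00059) and in double mutants (18.8 FPKM, 0.39, limma adjusted p = 0.0149). Of all genes, 33.9% passed as higher in *bcat-1* mutants and 26.4% in double mutants. *fzo-1*, the mitofusin, was slightly lower in *bcat-1* mutants (-0.13, limma adjusted p = 0.0178) and higher in *hecd-1* mutants (0.15, limma adjusted p = 0.0184). With median-of-ratios scaling 5 of the 6 passed as lower in *bcat-1* mutants, where 7879 of 15914 genes passed in either direction. In *ivd-1* mutants 0 passed by limma on the FPKM scale, with median-of-ratios scaling or with quantile normalization, and 0 had an unadjusted p under 0.05 on the FPKM scale.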

How the data were processed

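Poly-A RNA of 20 whole-worm samples was sequenced from stranded paired-end libraries. The authors aligned the reads with Tophat2 and quantified them with Cufflinks2 in the QuickNGS workflow, on the Ensembl release named in their methods, whose genome build is not given in the sources used here, and deposited FPKM values per gene. FPKM divides by gene length and by mapped fragments, so a few abundant genes can shift all others. Counts were not analysed here. Strains and replicate numbers were taken from the labels. Members and lists were chosen with earlier results of these data known.

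Of 46284 genes, 15957 had at least 0.5 FPKM in at least 4 samples. limma 3.58.1 with a mean-variance trend (R 4.3.3) was fitted to log2(FPKM + 0.5) of all 20 samples with strain as the only term, and contrasts gave 8 pairwise comparisons, 2 further pairs used only for the order of levels, and the interaction. The fold changes are on this scale, which understates the change of low genes. The table has no gene with missing values, and no sample column repeated another. The strain comparisons with 4 against 4 samples allow no exact permutation p below 0.0286. Named genes were all 8 members and, per list, up to 3 genes of largest change that passed. D2030.2 and *jmjd-3.1* in *hecd-1(tm2371)* were named after their values were seen. The script was tested on simulated data. Alternatives were pseudocounts of 0.1 and 1, no filter, a mean of at least 1 FPKM, median-of-ratios scaling, quantile normalization, only the strains compared, a replicate block, a germline covariate, and leaving out each sample. Replicate numbers 1 to 4 recur in every strain, but of 40 same-numbered pairs 13 had correlated deviations over 0.1 and no comparison had all pairs over 0.1, so they were not used as pairs.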

Additional observations from a re-analysis of the deposited data

Results flagged for a closer look

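The effect of *bcat-1(hh58)* differed between the *ivd-1(tm6784)* and the wild-type background for 3 members by the interaction term: 0.24 for *hsp-60*, -0.24 for *atfs-1* and -0.88 for *dve-1*. Of all genes, 47.4% passed for this term. The call of *atfs-1* was lost with median-of-ratios scaling (-0.03, limma adjusted p = 0.775). That of *dve-1* was lost with the germline covariate (-0.33, limma adjusted p = 0.204). In 3 of 40 groups of 4 samples, 1 sample stood far from the other 3 by Dixon's test, which chance does in about 1 of 20 groups. *hsp-60* in replicate 4 of the double mutant was at 253.6 FPKM, and the others were at 243 to 245. *atfs-1* in replicate 1 of *bcat-1(hh58)* was at 71.5 FPKM, and the others were at 66.3 to 66.7. *dve-1* in replicate 2 of the double mutant was at 11.2 FPKM, and the others were at 9.53 to 9.77.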

How the results depend on the processing

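Over 8 members and 9 comparisons, 28 of 72 differences passed, and 18 of these kept their direction and their call in all 29 alternatives. The replicate block changed no call of a member, and 5 members passed under it in *bcat-1* mutants against wild-type, as without it. In *hecd-1* mutants against wild-type the count of 1 member became 0 with median-of-ratios scaling and 4 with the germline covariate, and 0 to 2 leaving out 1 sample. For double against *bcat-1* mutants 0 became 3 with median-of-ratios scaling and 1 with quantile normalization, and 0 to 1 leaving out 1 sample. For *ivd-1* against *hecd-1* mutants 3 became 1 with the germline covariate, and for the interaction 3 became 5 with quantile normalization.

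The log2 fold change turned sign under 1 or more alternatives for 2 of the 28 differences that passed and 25 of the 44 that did not. Those whose values the report gives were these. Median-of-ratios scaling gave -0.0077 for *hsp-6* in *ivd-1* mutants, -0.11 for *haf-1* and -0.13 for *ubl-5* in *bcat-1* mutants, -0.068 for *ubl-5* in double mutants and -0.0036 for *hsp-60* in *hecd-1* mutants, all against wild-type, and -0.059 for *atfs-1* in *bcat-1* against *ivd-1* mutants and 0.13 for the interaction of *hsp-6*. Quantile normalization gave -0.54 for *haf-1* in *bcat-1* and -0.027 for *clpp-1* in *hecd-1* mutants against wild-type, -0.00039 for *atfs-1* in *bcat-1* against *ivd-1* mutants and 0.022 for the interaction of *hsp-6*. The germline covariate gave 0.0021 for *lonp-1* and 0.018 for *haf-1* in *ivd-1* mutants against wild-type, 0.020 for *dve-1* in double against *bcat-1* mutants and -0.13 for *dve-1* in *ivd-1* against *hecd-1* mutants. Leaving out 1 sample gave -0.071 to 0.032 and -0.12 to 0.055 for *clpp-1* in *ivd-1* and *bcat-1* mutants, -0.0023 to 0.12 and -0.038 to 0.079 for *ubl-5* in *bcat-1* and double mutants, all against wild-type, and, against *ivd-1* mutants, -0.043 to 0.047 for *dve-1* in double and -0.0034 to 0.038 for *atfs-1* in *bcat-1* mutants. None of these passed the test on the FPKM scale except *hsp-6* in *ivd-1* mutants and *dve-1* against *hecd-1* mutants. The cause was not tested.

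Over all genes, the count that passed moved most for double against *bcat-1* mutants, from 3738 to 12 with the germline covariate and 7 with only those strains fitted, and 448 to 7707 leaving out 1 sample. With the germline covariate 7112 became 2817 for double against *ivd-1* mutants, 3110 became 6038 for *bcat-1* against *ivd-1* mutants (1783 with only those strains), 7961 became 2940 for *ivd-1* against *hecd-1* mutants and 7569 became 1026 for the interaction. For *hecd-1* mutants against wild-type 3369 became 2200 with median-of-ratios scaling, 2233 with quantile normalization, 5181 with the germline covariate and at least 1964 leaving out 1 sample, and for *ivd-1* mutants against wild-type 3633 became 2269 without *ivd-1* mutant replicate 2. The depth of the libraries is unknown, and *haf-1* and *dve-1*, the members with the lowest levels, had larger standard errors than *hsp-6*, *hsp-60* and *lonp-1*.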
